A study of Mus musculus with 6 samples.

Results

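Neutrophils and their precursors make granule proteins in a fixed order, with the azurophil (early) granule enzymes first and the specific and gelatinase (late) granule proteins afterwards. The 36 genes described here encode granule proteins, lysosomal proteases, the phagocyte oxidase, leukotriene and prostaglandin enzymes and a few other effectors of myeloid cells. They were taken by symbol from a table of 24012 mouse genes, and all 36 were found in it. The genes fall into 4 early granule genes, 9 late granule genes, 4 calprotectin and lysozyme genes, 5 oxidase genes, 2 eosinophil granule genes, 4 eicosanoid enzymes, 4 cathepsins and 4 other enzymes and regulators.

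The data are ChIP-seq read counts of H3K79me2 (Abcam ab3594) and H3K79me3 (Diagenode) in primary progenitors of mouse bone marrow. A retrovirus gave these cells the leukaemia fusion MLL-AF9 carrying the D546R substitution, the D544R substitution or no substitution (WT), so all 3 genotypes express the fusion. Each genotype and mark had 1 library in which reads of several sequencing runs were merged, and no uninfected cells were analysed here. Both substitutions lie in the AF9 portion of the fusion, and the comparison asks how they change H3K79 methylation.

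H3K79 methylation is laid down by DOT1L along the bodies of transcribed genes, and the AF9 portion of the fusion binds DOT1L. MLL-AF9 keeps cells at the stage of a granulocyte and monocyte progenitor, in which early granule genes are typically transcribed while late granule genes await further maturation. The counts therefore describe chromatin over the genes, and RNA was not measured. The cells are a population, so fewer cells carrying a mark and less of it per cell cannot be told apart.

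Counts were summed by the authors over each transcript plus 2 kb and were divided here by a size factor per library (normalised counts). Between 3558329 and 6652571 counts were available per library. Of the short regions under 5 kb, 13.0% had no count in the D546R library of H3K79me2, against 2.44% in D544R and 1.83% in WT. In H3K79me3 the shares were 33.5% in D546R, 16.2% in D544R and 17.6% in WT. From these shares an estimated 4.78 reads came from each independent fragment in D546R, 3.26 in D544R and 4.05 in WT for H3K79me2, and 18.6 in D546R, 8.12 in D544R and 9.73 in WT for H3K79me3. The estimate assumes the same rate of counts per base in all short regions, so real differences between regions would also raise it. Many of the log2 ratios below are given with a 95% counting interval and, where named, a wider fragment interval from counts divided by these estimates. Medians and some ratios of single genes are given without an interval. With 1 library per group no test between genotypes was possible, and both intervals cover counting error only. The 2-fold rule used below asks for 3 things at once: a ratio of at least 2-fold, a counting interval that leaves out 0 on the log2 scale, and an average of at least 100 normalised counts across the libraries of the mark. The average includes the tested library, so a gene can reach 100 through a high D546R value alone. A gene of equal WT level that fell in D546R could not.

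Coverage set what could be read. In H3K79me2, 18 members had a mean normalised count of at least 100 and the other 18 had 10 to 100. In H3K79me3, 13 reached 100, 22 had 10 to 100 and Camp was under 10. The same 13 genes reached 100 in both marks, namely Ltf, Chil3, Cybb, Ncf4, Rac2, Alox5, Alox5ap, Lta4h, Ctsd, Ctsb, Ctsc, Serpinb1a and Anxa1. None of the 4 early granule genes did so in either mark, although Mpo came close with means of 98.0 in H3K79me2 and 93.1 in H3K79me3. Of the 9 late granule genes, Ltf, Chil3 and Pglyrp1 reached 100 in H3K79me2, and Ltf and Chil3 in H3K79me3. The early versus late contrast thus rests mostly on genes that could not pass the 2-fold rule.

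Promoter sequences are shown for the 4 genes that passed the 2-fold rule in D546R H3K79me2 and for 2 early granule genes, since C/EBP and PU.1 proteins are well known activators of granule genes. Each runs 5′ to 3′ on the coding strand from 250 bases before to 50 bases after the start in RefSeq (GRCm38.p6, not the mm9 build of the counts). Capitals mark a C/EBP-type match (TTGCNNAA) or an ETS-type match of the PU.1 class (GAGGAA) on either strand. Chil3 (chr3:106167515-106167814, minus strand), Ltf (chr9:111019042-111019341, plus), Pglyrp1 (chr7:18884440-18884739, plus), Cybb (chrX:9469275-9469574, minus), Mpo (chr11:87793534-87793833, plus) and Elane (chr10:79886062-79886361, plus) read as follows.
Chil3: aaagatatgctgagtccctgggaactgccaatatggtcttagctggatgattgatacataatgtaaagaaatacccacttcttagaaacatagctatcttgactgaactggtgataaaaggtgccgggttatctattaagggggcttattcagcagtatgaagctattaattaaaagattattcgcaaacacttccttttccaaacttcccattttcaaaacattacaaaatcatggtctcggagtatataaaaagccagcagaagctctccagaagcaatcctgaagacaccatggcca
Ltf: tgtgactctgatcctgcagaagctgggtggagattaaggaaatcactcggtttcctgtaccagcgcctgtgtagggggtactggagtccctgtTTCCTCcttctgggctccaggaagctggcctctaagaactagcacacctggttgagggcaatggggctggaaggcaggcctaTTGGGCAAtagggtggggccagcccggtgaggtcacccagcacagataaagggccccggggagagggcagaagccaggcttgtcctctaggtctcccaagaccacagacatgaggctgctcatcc
Pglyrp1: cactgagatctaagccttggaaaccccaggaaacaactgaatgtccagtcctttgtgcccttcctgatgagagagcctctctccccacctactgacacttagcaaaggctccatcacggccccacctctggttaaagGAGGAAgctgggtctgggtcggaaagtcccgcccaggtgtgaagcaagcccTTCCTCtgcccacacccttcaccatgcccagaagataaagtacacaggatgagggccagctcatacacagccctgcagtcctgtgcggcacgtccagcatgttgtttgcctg
Cybb: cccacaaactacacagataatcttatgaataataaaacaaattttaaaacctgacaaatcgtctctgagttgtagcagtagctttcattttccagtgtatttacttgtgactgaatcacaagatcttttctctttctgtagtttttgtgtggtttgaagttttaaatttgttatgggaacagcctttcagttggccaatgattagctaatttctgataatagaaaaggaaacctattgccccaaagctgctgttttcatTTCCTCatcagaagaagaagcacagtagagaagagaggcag
Mpo: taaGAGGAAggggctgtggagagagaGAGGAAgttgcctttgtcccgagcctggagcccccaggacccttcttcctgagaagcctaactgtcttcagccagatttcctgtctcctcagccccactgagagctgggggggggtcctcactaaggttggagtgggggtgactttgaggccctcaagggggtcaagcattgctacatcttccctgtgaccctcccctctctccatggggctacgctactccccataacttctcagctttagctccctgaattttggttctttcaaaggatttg
Elane: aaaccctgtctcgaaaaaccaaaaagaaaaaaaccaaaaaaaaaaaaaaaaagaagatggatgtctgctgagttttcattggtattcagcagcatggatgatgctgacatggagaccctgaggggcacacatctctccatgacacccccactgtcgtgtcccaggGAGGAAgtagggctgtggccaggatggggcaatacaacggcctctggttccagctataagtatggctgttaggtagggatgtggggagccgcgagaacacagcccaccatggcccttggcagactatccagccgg

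The letters TTGCNNAA were found in 8 of the 27 members with a promoter entry (29.6%), against 10.8% of all 27025 promoters of the same length. They were in 4 of 7 late granule promoters (Lcn2, Ltf, Mmp8 and Ngp) and in 0 of 4 early ones. The letters GAGGAA were found in 16 of 27 (59.3%), against 28.3% of all promoters. All 4 early promoters held them, as did 4 of 7 late ones. No matches overlap in the sequences printed, and the Chil3 window held neither motif. A match describes letters only, and binding was not measured.

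Over all 36 members, H3K79me2 was mostly higher in D546R cells. The median log2 ratio of D546R to WT was 0.59, with 29 of 36 members (80.6%) above 0, whereas over all 20308 genes with a mean of at least 10 the median was 0.01 and 50.9% lay above 0. At a mean of at least 100 the members had 0.58, with 17 of 18 above 0, against 0.07 and 57.6% over all 8905 such genes. D544R against WT had a median of 0.19 over the members, with 23 of 36 above 0, against 0.00 and 50.3% over all genes. The members together held 0.124% of the D546R library, 0.0981% of the D544R library and 0.0843% of the WT library. D546R and D544R were each compared with the same WT library, so these medians are not independent of one another.

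The 2-fold rule was passed by 4 of the 18 members with enough H3K79me2 counts in D546R against WT, and all 4 were higher. Over all 8905 genes with such counts 0.887% were past the rule as higher, and 0.865% as lower (0 members). The 4 were Chil3, Pglyrp1, Ltf and Cybb, and the same 4 passed when the fragment interval replaced the counting interval. All had means between 100 and 300, a band that held 14 members and in which 1.4% of all genes were called higher. Pglyrp1 and Ltf were under 100 in WT and D544R and reached that average only through D546R. The shares over all genes used the same filter. In D544R against WT, 0 members were past the rule in either direction, beside 0.0337% of all genes higher and 0.0112% lower.

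In H3K79me3 the members gave a less even picture. The D546R to WT median was 0.17, with 21 of 35 above 0, against -0.01 and 49.6% over all genes. The rule was passed by 5 of 13 members, all higher (Rac2, Chil3, Ctsd, Serpinb1a and Alox5ap), beside 6.94% of all 10824 genes. Another 8.92% of all genes were lower, among them 0 members. The same 5 held with the fragment interval, under which 4.26% of all genes were higher. Of the 5, 4 had means of 100 to 300, a band that held 9 members and in which 11.3% of all genes were higher. Chil3 had a mean above 300, where 1.71% were higher. For D544R against WT the median was 0.05, 1 member was lower (Ncf4, beside 3.02% of all genes) and 0 were higher (4.36% of all genes). In the band of 100 to 300, which holds Ncf4, 5.31% of all genes were lower and 7.37% higher. Chil3 was the only member past the rule in both marks.

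**Figure D1:**
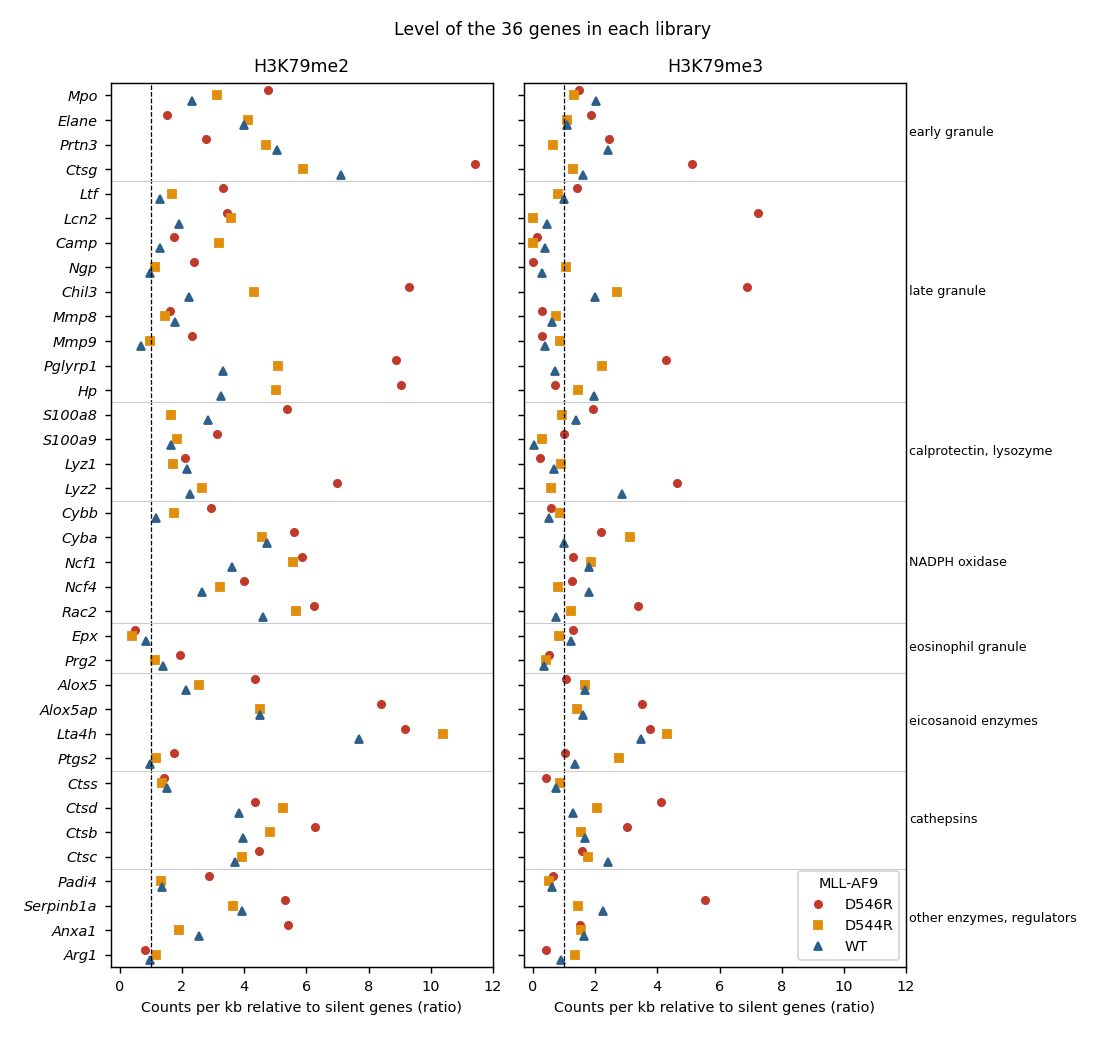
Counts per kb of region for each of the 36 genes, divided by the counts per kb of silent genes of other tissues in the same library, for H3K79me2 (left) and H3K79me3 (right). Circles are D546R, squares D544R and triangles WT (1 library each); the dashed line marks the level of the silent genes. In H3K79me2 the D546R circles reach 11.4 at Ctsg, and Epx lies under the dashed line in every genotype.

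Levels of the mark were compared between genes as counts per kb relative to a list of 81 genes specific to other tissues. The median member had an H3K79me2 level of 4.17 times the silent genes in D546R cells, 3.14 times in D544R cells and 2.30 times in WT cells. Over all genes the medians were 1.24 in D546R, 1.28 in D544R and 1.22 in WT. In H3K79me3 the members were at 1.44 times in D546R, 1.15 times in D544R and 1.25 times in WT, against 1.04 in D546R, 1.06 in D544R and 1.05 in WT over all genes. More than 2 times the silent level of H3K79me2 was seen for 28 members in D546R, 21 in D544R and 22 in WT (77.8%, 58.3% and 61.1% of the 36), beside 31.7% of all genes in D546R, 28.8% in D544R and 27.5% in WT. In H3K79me3 it was seen for 13 members in D546R, 6 in D544R and 7 in WT (36.1%, 16.7% and 19.4%), beside 16.4% of all genes in D546R, 15.2% in D544R and 16.9% in WT. The median member thus lay near the silent genes in H3K79me3, while single members reached up to 7.23 times, for Lcn2 in D546R. Single silent genes themselves reached 3.02 times in D546R, 5.49 in D544R and 5.13 in WT. More than 2 times was seen for 11.1% of the silent genes in D546R and 6.17% in D544R and in WT.

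The early granule genes encode the azurophil enzymes myeloperoxidase (Mpo) and the serine proteases neutrophil elastase (Elane), proteinase 3 (Prtn3) and cathepsin G (Ctsg). In WT cells they were better marked than the late genes. Their summed H3K79me2 per kb was 5.04 times the silent genes in D546R, 4.08 times in D544R and 3.97 times in WT, while the late genes had 5.05 times in D546R, 2.79 times in D544R and 1.80 times in WT. The near equality of the classes in D546R rested on Chil3, since without it the late genes had 3.81 times in D546R, 2.34 times in D544R and 1.67 times in WT. The summed H3K79me2 of the late genes was higher in D546R than in WT by a log2 ratio of 1.39 (counting interval 1.24 to 1.55, fragment interval 1.06 to 1.73). For the early genes the summed ratio was 0.25 (0.00 to 0.49, fragment interval -0.30 to 0.78).

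Within the early class the members went different ways in D546R. Mpo had 134 normalised H3K79me2 counts in D546R cells, 90.5 in D544R and 69.8 in WT, a D546R to WT log2 ratio of 0.93 (0.52 to 1.36). Ctsg had 119 in D546R, 63.8 in D544R and 79.5 in WT (0.59, 0.16 to 1.00). The neighbouring protease genes lay on the other side of 0. Elane had 13.1 in D546R, 37.0 in D544R and 37.1 in WT (-1.45, -2.65 to -0.51), and Prtn3 had 34.0 in D546R, 59.7 in D544R and 66.1 in WT (-0.94, -1.65 to -0.31). Elane and Prtn3 lie side by side on chromosome 10 (mm9 chr10:79347056-79350961 and chr10:79340411-79345917), so they are not independent. Fragment intervals of Elane (-4.60 to 0.62) and Prtn3 (-2.64 to 0.44) included no change, and so did that of Ctsg. None of the 4 genes had enough counts for the rule. The median early ratio of -0.18 is thus a middle of 2 values above and 2 below 0, and it became 0.0058 when libraries were scaled by the median ratio of the silent genes.

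In H3K79me3 the early genes did not keep their order, and all but Ctsg changed the sign of their D546R to WT ratio. Ctsg had 112 normalised counts in D546R, 27.5 in D544R and 33.6 in WT, a D546R to WT ratio of 1.72 (1.18 to 2.34, fragment interval -0.32 to 4.15). Mpo had 87.3 in D546R, 76.9 in D544R and 115 in WT (-0.40, -0.80 to 0.00). Elane had 34.2 in D546R, 19.5 in D544R and 19.4 in WT. Prtn3 stood low in D544R, at 62.5 in D546R, 16.1 in D544R and 59.1 in WT. Prtn3 and Elane, which were lower in D546R than in WT in H3K79me2, had D546R to WT ratios of 0.08 and 0.80 in H3K79me3. The early median was 0.44 for D546R against WT and -0.43 for D544R against WT.

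The late granule genes encode lactoferrin (Ltf), the siderophore-binding lipocalin 2 (Lcn2), the cathelicidin precursor (Camp), neutrophilic granule protein (Ngp), the chitinase-like protein Ym1 (Chil3), the collagenase Mmp8, the gelatinase Mmp9, the peptidoglycan-binding protein Pglyrp1 and haptoglobin (Hp). Their median H3K79me2 ratio was 1.26 in D546R against WT, with 8 of 9 above 0, and 0.57 in D544R against WT, again with 8 of 9 above 0. Mmp8 was the exception in both comparisons. Without Chil3 the D546R median was 1.23. The late minus early difference of H3K79me2 medians was 1.44 in D546R against WT and 0.64 in D544R against WT. In H3K79me3 it was -0.34 in D546R against WT and 0.84 in D544R against WT. Summed H3K79me3 counts gave the other order in D546R against WT. The late sum had a ratio of 1.46 (1.30 to 1.61, fragment interval 0.91 to 2.01) and the early sum 0.38 (0.14 to 0.63, fragment interval -0.58 to 1.33). Without Chil3 the late genes summed to 1.55 times the silent genes in D546R and 0.791 times in WT. The H3K79me3 contrast in D546R thus depended on the measure.

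Chil3 (mm9 chr3:105948471-105970482) had the highest D546R to WT ratio of the members in H3K79me2. It had 456 normalised H3K79me2 counts in D546R cells, 219 in D544R cells and 117 in WT cells. The D546R to WT ratio was 1.96 (1.69 to 2.25, fragment interval 1.38 to 2.57), and that of D544R to WT was 0.91 (0.61 to 1.22, fragment interval 0.31 to 1.52). D546R was also higher than D544R, by 1.06 (0.81 to 1.31). In H3K79me3 the order was the same, with 706 in D546R, 274 in D544R and 197 in WT, and a D546R to WT ratio of 1.84 (1.62 to 2.08, fragment interval 1.05 to 2.69). Chil3 has a close relative, Chil4, and reads that match both could not be separated from these counts.

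Pglyrp1 (chr7:19468038-19475787) had 153 normalised H3K79me2 counts in D546R, 90.5 in D544R and 60.9 in WT, a D546R to WT ratio of 1.33 (0.91 to 1.76, fragment interval 0.42 to 2.26). Its region overlaps that of Ccdc61 over 20.1% of its length, so part of the signal may belong to that gene. Ltf (chr9:110919795-110945270) had 187 in D546R, 97.7 in D544R and 78.0 in WT, a ratio of 1.26 (0.89 to 1.64, fragment interval 0.46 to 2.08). All 3 genes had their lowest H3K79me2 value in WT and their highest in D546R. In H3K79me3, Pglyrp1 had 155 in D546R, 79.2 in D544R and 24.4 in WT (2.64, 2.04 to 3.34), with a mean of 86.2 that kept it out of the rule. Ltf had 167 in D546R, 95.2 in D544R and 114 in WT (0.55, 0.21 to 0.90).

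The other late genes had too few H3K79me2 counts for the rule. Hp had 122 normalised counts in D546R, 69.9 in D544R and 46.8 in WT, a D546R to WT ratio of 1.38 (0.90 to 1.86, fragment interval 0.34 to 2.44). Mmp9 had 49.7 in D546R, 21.6 in D544R and 15.6 in WT (1.66, 0.87 to 2.52). Ngp had 27.5 in D546R, 13.4 in D544R and 11.9 in WT (1.20, 0.20 to 2.25). These 3 again had D546R at the top and WT at the bottom. Lcn2 instead had 39.3 in D546R, 42.2 in D544R and 23.0 in WT, with both mutants above WT. Camp was highest in D544R, at 15.7 in D546R, 29.8 in D544R and 12.6 in WT. Mmp8 had 43.2 in D546R, 40.1 in D544R and 50.5 in WT, a D546R to WT ratio of -0.21 (-0.87 to 0.39). The fragment intervals of D546R against WT included no change for Mmp9, Ngp, Lcn2, Camp and Mmp8.

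In H3K79me3 the late genes scattered, and single libraries at or near 0 set the extremes. Lcn2 had 201 raw counts in D546R, 0 in D544R and 10 in WT, and a count of 0 allows up to 3. The D546R to WT ratio of Lcn2 was 4.01 (3.17 to 5.16, fragment interval 1.31 to 9.39), while no fold is given against D544R. Ngp had 0 counts in D546R, 22 in D544R and 7 in WT. Camp had 3 counts in D546R, 0 in D544R and 7 in WT, at or near the floor throughout. Hp had 19.7 normalised counts in D546R, 40.2 in D544R and 53.0 in WT, Mmp8 had 16.3 in D546R, 41.3 in D544R and 32.6 in WT, and Mmp9 had 13.7 in D546R, 37.9 in D544R and 17.3 in WT. For these 3 the D546R library held the lowest value, the reverse of Hp and Mmp9 in H3K79me2. Of the 8 late genes with a mean of at least 10, 4 lay above and 4 below 0 in D546R against WT, with a median of 0.11 that turned to -0.34 without Chil3 and to -0.18 when scaled by the median ratio of the silent genes (0.04 when scaled by their sum). With a zero count set to the floor of 3 the median stayed 0.11.

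**Figure D2:**
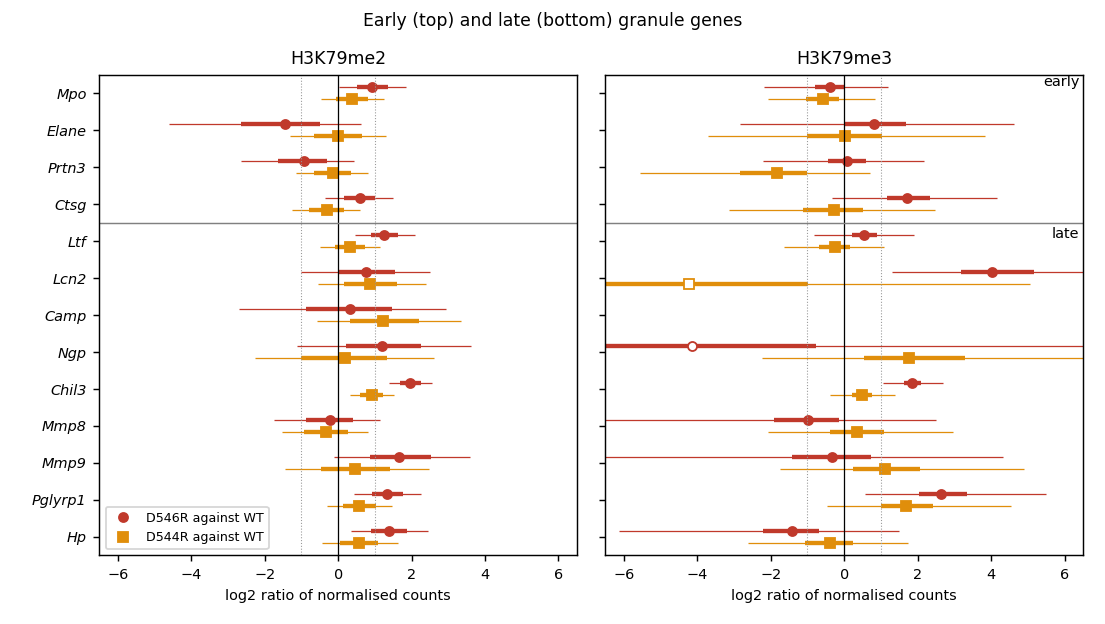
Log2 ratio of normalised counts against WT for the 4 early granule genes (top) and the 9 late granule genes (bottom), in H3K79me2 (left) and H3K79me3 (right). Circles are D546R and squares D544R; thick bars are 95% counting intervals and thin lines fragment intervals, drawn to 6.5 at most, dotted lines mark 2-fold, hollow symbols have a library at 0 counts, and Camp is left out of H3K79me3. Chil3 in D546R lies at 1.96 and 1.84 in the 2 panels, whereas Hp lies at 1.38 and -1.41.

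Calprotectin (S100a8 and S100a9) and the lysozymes (Lyz1 and Lyz2) are abundant proteins of mature phagocytes. None of the 4 genes reached a mean of 100 in either mark. Their median H3K79me2 ratio was 0.82 in D546R against WT, with 3 of 4 above 0, and -0.13 in D544R against WT. Lyz2, singled out after its values were seen, had 105 normalised counts in D546R, 41.1 in D544R and 36.4 in WT, a D546R to WT ratio of 1.52 (0.99 to 2.07, fragment interval 0.37 to 2.72). Lyz1 and Lyz2 are near-identical neighbours, so reads may have been split between them by the counting. In H3K79me3 the 4 genes ranged in D546R against WT between -1.43 at Lyz1 and 4.00 at S100a9, which had 28 counts in D546R, 6 in D544R and 1 in WT.

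The phagocyte NADPH oxidase makes superoxide from a membrane pair (Cybb, gp91phox, and Cyba, p22phox), cytosolic subunits (Ncf1, p47phox, and Ncf4, p40phox) and the GTPase Rac2. All 5 had enough H3K79me2 counts, and all 5 lay above 0 in D546R against WT, with a median of 0.49. Cybb (chrX:9010379-9046450), the catalytic subunit, had 236 normalised counts in D546R, 144 in D544R and 101 in WT. Its D546R to WT ratio was 1.22 (0.89 to 1.55, fragment interval 0.51 to 1.94) and its D544R to WT ratio 0.51 (0.16 to 0.86, fragment interval -0.17 to 1.21). The partner Cyba did not follow, with 127 in D546R, 107 in D544R and 114 in WT (0.15, -0.23 to 0.53). Ncf1 had 151 in D546R, 148 in D544R and 99.5 in WT, with both mutants above WT (0.60, 0.22 to 0.97, for D546R, and 0.57, 0.22 to 0.92, for D544R). Ncf4 had 175 in D546R, 146 in D544R and 125 in WT (0.49, 0.15 to 0.83). Rac2 had 217 in D546R, 204 in D544R and 172 in WT (0.34, 0.04 to 0.63).

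The oxidase genes ranked differently in H3K79me3. Rac2 (chr15:78387598-78403213) had the highest ratio of the members past the rule, with 245 normalised counts in D546R, 87.2 in D544R and 50.9 in WT (2.25, 1.83 to 2.73, fragment interval 0.75 to 4.05). Cybb, past the rule in H3K79me2, had 97.6 in D546R, 143 in D544R and 84.5 in WT (0.20, -0.21 to 0.63). Cyba had 104 in D546R, 146 in D544R and 44.8 in WT, with both mutants above WT and a mean of 98.3 just short of the rule. Its D544R to WT ratio of 1.69 (1.20 to 2.23, fragment interval 0.13 to 3.61) was the larger, against 1.21 for D546R. Ncf1 had 70.2 in D546R, 98.7 in D544R and 92.7 in WT. Ncf4 was the member past the rule as lower in D544R, with 115 in D546R, 73.4 in D544R and 160 in WT, a D544R to WT ratio of -1.12 (-1.57 to -0.69). Its fragment interval of -2.56 to 0.19 included no change, and with that interval 1.66% of all genes were lower.

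Eosinophil peroxidase (Epx) and the major basic protein (Prg2) mark another granulocyte lineage. Both stayed near the silent genes in H3K79me2, with Epx at 0.478 times in D546R, 0.396 in D544R and 0.830 in WT, and Prg2 at 1.94 times in D546R, 1.12 in D544R and 1.39 in WT. Neither had a mean above 100 in either mark, and none of their D546R to WT counting intervals excluded no change.

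Among the eicosanoid enzymes, Alox5 (5-lipoxygenase), its activating protein Alox5ap and Lta4h (leukotriene A4 hydrolase) make leukotrienes, and Ptgs2 (cyclooxygenase-2) makes prostaglandins. Lta4h had one of the highest H3K79me2 levels of the members, at 9.16 times the silent genes in D546R, 10.4 times in D544R and 7.69 times in WT. It had 682 normalised counts in D546R, 801 in D544R and 613 in WT (D546R to WT 0.16, -0.01 to 0.31), highest in D544R. Alox5ap had 467 in D546R, 259 in D544R and 269 in WT (0.80, 0.58 to 1.01), and Alox5 had 514 in D546R, 313 in D544R and 270 in WT (0.93, 0.72 to 1.14). The lipoxygenase pair thus lay above WT in D546R but short of 2-fold, with fragment intervals above 0.

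In H3K79me3 the lipoxygenase pair parted. Alox5ap (chr5:150074633-150099623) had 407 normalised counts in D546R, 164 in D544R and 178 in WT (1.19, 0.94 to 1.45, fragment interval 0.27 to 2.15). Alox5 was lowest in D546R, with 260 in D546R, 412 in D544R and 398 in WT (-0.61, -0.84 to -0.39, fragment interval -1.54 to 0.25). Lta4h had 589 in D546R, 662 in D544R and 521 in WT (0.17, 0.01 to 0.34). Ptgs2 was under 100 in both marks, with D546R to WT ratios of 0.72 in H3K79me2 and -0.33 in H3K79me3.

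The lysosomal cathepsins had the group median closest to 0 in H3K79me2, at 0.13 for D546R against WT over cathepsins S, D, B and C. Ctsc, which activates the granule serine proteases, had 346 normalised counts in D546R, 315 in D544R and 305 in WT (0.18, -0.05 to 0.41). Ctsb had 356 in D546R, 284 in D544R and 240 in WT (0.57, 0.33 to 0.81), with 10.9% of its region shared with Fdft1. Ctsd had 135 in D546R, 169 in D544R and 128 in WT, and Ctss had 101 in D546R, 99.8 in D544R and 115 in WT. The D546R to WT ratios were 0.08 for Ctsd and -0.19 for Ctss.

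Cathepsin D, an aspartic protease, stood out in H3K79me3. Ctsd (chr7:149559820-149573775) had 268 normalised counts in D546R, 133 in D544R and 80.5 in WT, a D546R to WT ratio of 1.73 (1.37 to 2.11, fragment interval 0.45 to 3.15). Its H3K79me2 ratio was 0.08 (-0.29 to 0.44). Ctsb had 360 in D546R, 181 in D544R and 190 in WT (0.92, 0.67 to 1.18, fragment interval -0.02 to 1.88). The other cathepsins lay below WT in D546R, with 258 in D546R, 283 in D544R and 373 in WT for Ctsc and 60.8 in D546R, 127 in D544R and 106 in WT for Ctss.

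The remaining members are the histone-citrullinating enzyme Padi4, the inhibitor of granule serine proteases Serpinb1a, the anti-inflammatory annexin Anxa1 and arginase 1 (Arg1). Anxa1 had 232 normalised H3K79me2 counts in D546R, 84.3 in D544R and 116 in WT. Its D546R to WT ratio of 1.00 (0.68 to 1.32) and that of Padi4, 0.99 (0.64 to 1.34), fell just short of 2-fold. Padi4 had 196 in D546R, 94.6 in D544R and 98.8 in WT, so both genes stood high in D546R only. Against D544R, D546R was higher past the rule for Anxa1 (1.45, 1.07 to 1.85), Padi4 (1.05, 0.67 to 1.44) and Chil3, 3 of 18 members beside 0.775% of all genes, with 0 lower beside 0.876%. Among genes with a mean of 100 to 300, which include these 3, 1.14% were higher. Padi4 reached the average of 100 only through D546R. Serpinb1a had 131 in D546R, 92.6 in D544R and 104 in WT (0.33, -0.05 to 0.71).

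Serpinb1a (chr13:32931960-32943054) was past the rule in H3K79me3, with 287 normalised counts in D546R, 74.6 in D544R and 111 in WT. The D546R to WT ratio was 1.36 (1.05 to 1.69, fragment interval 0.21 to 2.59), and related serpin genes may share its reads. Anxa1 and Padi4 did not keep their H3K79me2 pattern, with 137 in D546R, 137 in D544R and 142 in WT for Anxa1 and 92.4 in D546R, 71.1 in D544R and 83.5 in WT for Padi4. Arg1 was under 100 in both marks, with D546R to WT ratios of -0.33 in H3K79me2 and -1.01 in H3K79me3. D546R against D544R in H3K79me3 gave the same 5 genes as D546R against WT, beside 5.77% of all genes, and 0 lower beside 8.31%. Ctsd, at 1.00, lost its call there with the fragment interval, which left 4 members beside 3.77% of all genes. Among genes with a mean of 100 to 300, 9.44% were higher by the counting interval.

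**Figure D3:**
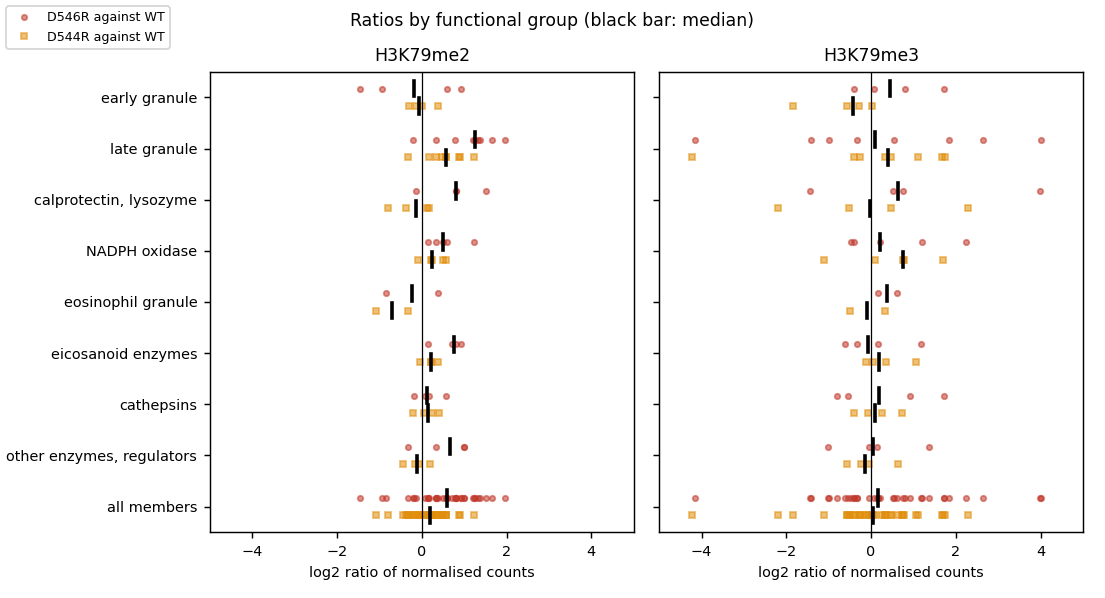
Log2 ratio of normalised counts against WT for the members of each functional group, in H3K79me2 (left) and H3K79me3 (right). Each circle is a gene in D546R and each square a gene in D544R with a mean of at least 10, and black bars are medians. In H3K79me2 the late granule median is 1.26 in D546R and 0.57 in D544R, while in H3K79me3 the points spread between -4.22 (Lcn2 in D544R, a library at 0 counts) and 4.01.

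Across marks, 9 of the 13 genes with enough counts in both lay above 0 in D546R against WT in each mark, beside 26.8% of all 8411 such genes, and 4 lay above 0 in H3K79me2 and below 0 in H3K79me3 (Ncf4, Alox5, Ctsc and Anxa1). Whether a gene's ratios differ between the marks was not tested, since each rests on 1 pair of libraries.

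**Figure D4:**
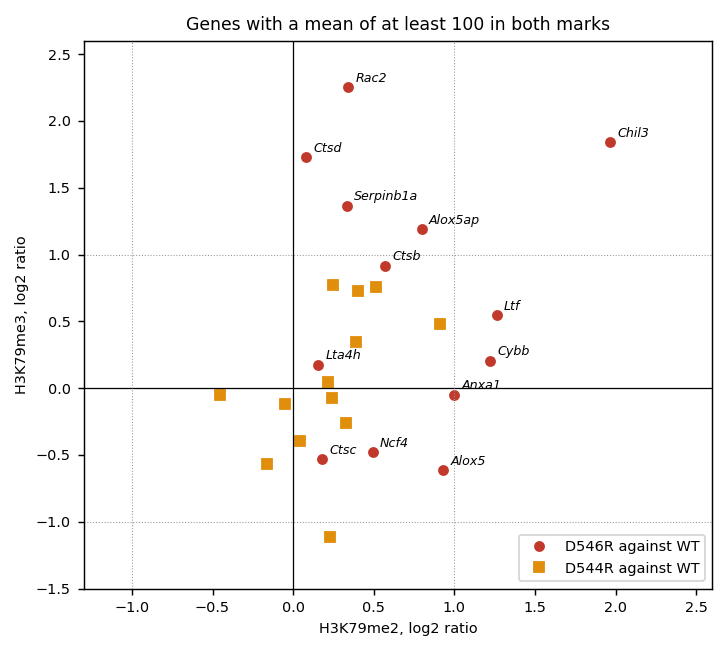
Log2 ratio against WT in H3K79me2 (horizontal) and H3K79me3 (vertical) for the 13 genes with a mean of at least 100 in both marks. Circles are D546R (named) and squares D544R, and dotted lines mark 2-fold. Chil3 is the 1 gene beyond 2-fold on both axes.

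The list of 52 further genes of the same pathways had 13 with enough H3K79me2 counts. None of these was past the rule in D546R or D544R against WT, and the D546R median over the 48 with a mean of at least 10 was 0.35, with 33 above 0, against 0.01 and 50.9% over all genes. Over the 13 it was 0.41, with 12 above 0, against 0.07 and 57.6% over all genes with enough counts. In H3K79me3, 5 of 19 were higher in D546R, beside 6.94% of all genes, among them the antibacterial protein Bpi (1.27), the cyclooxygenase Ptgs1 (1.20), the chitinase-like Chil4 (1.31) and arginase 2 (Arg2, 1.32). The granule proteoglycan serglycin (Srgn, -2.06) and cathepsin H (Ctsh, -1.48) were lower, beside 8.92% of all genes. Arg2 (fragment interval -0.15 to 2.91) and Ctsh (-3.56 to 0.14) lost their calls with the fragment interval. Chil4 (1.98) and Arg2 (1.43) were also higher in D544R, against the same WT library, beside 4.36% of all genes.

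Markers of cell types were read as H3K79me2 per kb relative to the silent genes. The 12 progenitor markers summed to 6.48 times in D546R, 5.11 times in D544R and 4.95 times in WT, above every other marker list. Their median was 3.62 times in D546R, 2.47 in D544R and 3.08 in WT, so D544R lay below WT by that measure. In each genotype 7 of the 12 were above 2 times, and the lowest in D546R was Irf8 at 0.712 times. Macrophage markers summed to 1.31 times in D546R, 1.27 in D544R and 1.04 in WT, and lymphoid markers to 1.01 times in D546R, 1.03 in D544R and 0.982 in WT. Mast cell and basophil markers summed to 2.00 times in D546R, 1.64 in D544R and 1.55 in WT. Erythroid markers, led by Tfrc, summed to 2.36 times in D546R, 2.00 in D544R and 2.00 in WT, while their median was 1.15 in D546R, 0.968 in D544R and 0.862 in WT. The progenitor markers had a median D546R to WT ratio of 0.15, with 6 of 12 above 0, from -0.70 at Irf8 to 1.33 at Cd33. Cd33 was the 1 marker past the rule among the 6 with enough counts (0.887% of all genes were higher). The part of such shifts in the ratios of the granule genes was not tested.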

How the data were processed

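The deposited table held raw counts of reads per gene, made by the authors and, per the file headers, taken over a span that starts 2 kb upstream of the transcript and runs to its end. Bowtie, bedtools, DESeq and mm9 are named in the submitters' processing notes; their roles and versions, and any removal of duplicate reads, are not stated in any source used here.

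Size factors were medians of ratios over the 3 libraries of a mark (0.764 in D546R, 0.972 in D544R and 1.35 in WT for H3K79me2; 1.17 in D546R, 0.872 in D544R and 0.982 in WT for H3K79me3). Ratios used a prior count of 0.5 and exact (Clopper-Pearson) intervals at 95%. Medians took genes with a mean of at least 10. Python 3.11.15 and scipy 1.17.1 were used, with edgeR 4.0.16 for TMM scaling as an alternative; the scripts were tested on simulated data. Levels divided counts per kb by those of 81 genes of other tissues. With 1 library per group there are no p-values. The 36 genes and all lists were chosen with earlier results of these data known. Values in every library were given for genes with a mean of at least 100 in either mark, for genes past the 2-fold rule and for granule genes, and the others by counts and ranges. Promoters came from RefSeq, which held 27 of the 36. The values of 1 further pathway gene are not reported here.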

Additional observations from a re-analysis of the deposited data

How the results depend on the processing

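Counts of members past the 2-fold rule depended most on the filter. Without it, D546R against WT gave 8 higher and 1 lower (Elane) in H3K79me2, in place of 4 and 0, and 10 higher and 4 lower in H3K79me3, in place of 5 and 0. D544R against WT then gave 1 higher and 1 lower in H3K79me2, in place of 0 and 0, and 5 higher and 5 lower in H3K79me3, in place of 0 and 1. D546R against D544R gave 6 higher and 1 lower in H3K79me2, in place of 3 and 0, and 11 higher and 8 lower in H3K79me3, in place of 5 and 0. With a mean of at least 300, D546R against WT left 0 higher in H3K79me2 and 1 in H3K79me3, D546R against D544R likewise left 0 and 1, and D544R against WT left 0 lower in H3K79me3. In each mark 4 members had such a mean. Of all such genes, 0.208% (H3K79me2) and 1.71% (H3K79me3) were higher in D546R against WT. The shares were 0.287% and 1.38% for D546R against D544R, and 0.284% were lower in D544R against WT in H3K79me3. At a 1.5-fold threshold the higher counts in H3K79me2 were 9 (D546R against WT), 1 (D544R against WT) and 8 (D546R against D544R). In H3K79me3 that threshold gave 3 higher for D544R against WT, 8 higher for D546R against D544R, and 1 lower (Alox5) for D546R against WT and against D544R. No share over all genes is given for counts without the filter, at 1.5-fold or under other scalings. Those counts thus have no background beside them.

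Scaling by the summed silent genes gave 7 higher for D546R against WT in H3K79me2, and by total counts 1 higher for D546R against D544R. The 1 lower call of D544R in H3K79me3 (Ncf4) became 0 with size factors over all 6 libraries and with the fragment interval. Scaling by the median ratio of the silent genes, chosen after seeing the data, shifted the D546R against WT median over all genes by 0.18 in H3K79me2 and by -0.28 in H3K79me3. It gave 7 higher for D546R against WT and 5 for D546R against D544R in H3K79me2, and 1 lower (Ctss) for each in H3K79me3. The D546R against WT medians then became 1.44 (late) and 0.0058 (early) in H3K79me2, and -0.18 (late) and 0.16 (early) in H3K79me3. Scaling moves every ratio of a comparison by the same amount, so these medians moved by the shift of all genes. The early and late medians relative to all genes were therefore not tested by this scaling. The late H3K79me3 median of 0.11 became 0.51 with size factors over all 6 libraries. That scaling moved the D546R against WT median over all genes in H3K79me3 by only -0.03. The rest of the change arose because the mean of Ngp fell under the filter used for medians, which left Ltf as the middle gene. The late median became 1.84 with a mean of at least 300 (Chil3 alone), -0.34 without the filter and -0.34 with Chil3 left out. TMM scaling, a prior count of 5 and leaving out overlapping regions turned no median and moved no count by over 1.5 times. No paired analysis was possible because each group had 1 library, and no library could be left out for the same reason. Depth limits what could be called, since 18 members in H3K79me2, and 22 and Camp in H3K79me3, had a mean under 100.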

Other observations

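The side of the 2 kb extension can be read from the regions once strand is known for 16720 of them in RefSeq. Neighbouring gene pairs that diverge overlapped by 1.5 to 2.0 kb in 608 cases, against 8 with an overlap of 3.5 to 4.0 kb, the size 2 extensions on the upstream sides would give. Pairs that converge overlapped by 1.5 to 2.0 kb in 241 cases and by 2.0 to 2.5 kb in 180. The extension thus lay at the lower coordinate on both strands, so that the regions of the 15 minus-strand members, Chil3, Cybb, Ctsg, Lcn2 and Anxa1 among them, carried 2 kb past the transcript end in place of 2 kb before its start. In H3K79me2 the D546R to WT median was 0.77 over these 15 members, with 13 above 0, and 0.45 over the 12 plus-strand members, with 8 above 0. Over all genes of known strand it was 0.019 on the minus and 0.026 on the plus strand. In H3K79me3 it was 0.48 over 14 minus-strand members and -0.12 over 12 plus-strand members, against -0.0037 and -0.012 over all genes. Whether strand bears on the ratios of the members was not tested.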
